A study of Mus musculus with 24 samples.

Results

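The 41 genes described here code for proteins that copy DNA and for regulators that take a cell across the G1/S boundary into S phase. They were chosen by gene symbol with earlier results of these data known, so their counts beside the shares of all genes are a description. Each was read by 1 probe set of the array. All 41 lay above the array median on at least 3 arrays, the filter used for testing, so they are 41 of 14064 genes tested and of 24479 probe sets in the table. They were measured on 24 mouse expression arrays with RNA from satellite cells, which are muscle stem cells, and from endothelial cells, which line the blood vessels. Both cell types came from the tibialis anterior, a leg muscle, and were isolated by fluorescence sorting. Day 0 is before injury, and days 2, 4 and 8 follow cardiotoxin, a snake venom toxin that destroys muscle fibres. Satellite cells were taken as negative for CD45, Sca1 and CD31, positive for alpha7-integrin, and positive or low for CD34. Endothelial cells were taken as CD45 negative and positive for Sca1, CD34 and CD31. Each of the 8 groups held 3 biological replicates. Groups follow the sample titles, which the separate field for cell type contradicts in 12 samples and the field for time point in 18. The strain, genotype, age and sex of the mice, and whether a sample was 1 animal or a pool, are not given in the sources used here, so p-values measure the spread between these samples. The cDNA was amplified from picogram amounts of RNA.

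Before S phase, a cell licenses its replication origins: Cdc6 and Cdt1 load the ring of Mcm2 to Mcm7 onto DNA, and geminin (Gmnn) later blocks Cdt1 so that no origin fires again. Cyclin E with its kinase and the kinase Cdc7 then turn the loaded ring into an active helicase with Cdc45 and the GINS proteins. Polymerases, the sliding clamp and ligase build the new strands from deoxynucleotides supplied by ribonucleotide reductase and thymidylate enzymes. Many of these genes are transcribed under E2F factors, which the retinoblastoma proteins hold back in resting cells. Satellite cells of uninjured muscle are known to be quiescent, and the endothelium of adult muscle turns over slowly. After injury both are known to divide, satellite cells to make new muscle and endothelial cells to rebuild capillaries.

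The levels of marker genes were set beside the cell types in the labels. The 12 myogenic markers (such as Pax7, Myf5 and Itga7) averaged log2 values of 8.20, 5.70, 8.43 and 8.49 in satellite cells on days 0, 2, 4 and 8, and stayed between 4.34 and 4.95 in the endothelial groups. The 14 endothelial markers (such as Pecam1 and Cdh5) averaged 6.32, 7.54, 7.17 and 7.65 in satellite cells and between 9.78 and 10.16 in endothelial cells. The 18 leukocyte markers, which the CD45 gate should keep low, had means of 3.94, 10.03, 7.43 and 6.04 in satellite cells over the 4 days. Their means in endothelial cells were 3.93, 6.97, 6.82 and 5.10. The 9 pericyte and smooth muscle markers averaged 10.19, 7.37, 7.51 and 9.15 in satellite cells and 7.91, 6.41, 6.17 and 6.25 in endothelial cells. The 6 fibro-adipogenic markers averaged 8.14, 6.54, 7.35 and 8.42 in satellite cells and 4.66, 4.52, 5.73 and 6.11 in endothelial cells. The 8 myofibre markers averaged 7.31, 7.82, 8.20 and 9.69 in satellite cells and 6.91, 5.03, 5.46 and 6.88 in endothelial cells. Markers of other cell types thus exceeded the myogenic ones in several satellite groups: those of pericytes and smooth muscle on day 0, those of pericytes and smooth muscle and of myofibres on day 8, and all 5 lists of other cells given here on day 2. The satellite arrays of day 2 were the satellite group with leukocyte and endothelial markers above the myogenic ones. Within that group replicate 2 had the lowest leukocyte mean (9.01, against 10.64 and 10.44) and the highest endothelial mean (8.74, against 6.80 and 7.07). In bulk samples fewer cells of a type and less RNA per cell cannot be told apart, and the part of other cells in the results below was not tested. The counts that rest on the satellite arrays of day 2 are also given without them.

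After injury, replication genes rose in both cell types, with more calls in satellite cells on each day. A gene was called when its adjusted p was under 0.05 and its log2 difference was at least 1, and the words rose and fell are used only for such calls. Differences are log2 values of the later day minus day 0, with the standard error of the fit (3 arrays in each group). In satellite cells 24 of the 41 members rose by day 2, when 10.9% of all genes tested rose and 9.67% fell. On day 4 it was 23 members (6.53% of all genes rose, 5.47% fell), and on day 8 it was 24 members (4.38% rose, 2.00% fell). In endothelial cells 16 members had risen by day 2 (3.73% of all genes rose, 3.01% fell), 6 by day 4 (3.11% rose, 2.22% fell) and 2 by day 8 (1.11% rose, 0.946% fell). The p-values were adjusted within each comparison, so a call asked for a smaller unadjusted p where fewer genes differed, as in endothelial cells. The counts of the cell types are thus not on 1 threshold. At an unadjusted p under 0.05 in limma, 32, 34 and 35 members were higher in satellite cells and 28, 18 and 12 in endothelial cells. No member fell in any of these 6 comparisons in limma, and none was lower at an unadjusted p under 0.05. The median log2 difference of the 41 members on days 2, 4 and 8 was 1.20, 1.25 and 1.35 in satellite cells and 0.97, 0.60 and 0.53 in endothelial cells, while the median over all genes tested lay between -0.03 and 0.01.

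The endothelial counts depended on single arrays. The day 2 count was 9 without endothelial day 2 replicate 2 and 10 without either of endothelial day 0 replicate 3 and endothelial day 2 replicate 3. The day 4 count was 2 without endothelial day 4 replicate 1 and 3 without endothelial day 0 replicate 2. The day 8 count was 1 without any of satellite day 0 replicates 1, 2 and 3, satellite day 2 replicate 1, satellite day 4 replicates 1 and 3, satellite day 8 replicate 3, endothelial day 0 replicates 1, 2 and 3, endothelial day 2 replicates 1, 2 and 3, endothelial day 4 replicate 3 and endothelial day 8 replicates 1 and 2. The satellite counts stayed between 17 and 26 when any array was left out, and the 17 was the day 8 count without satellite day 8 replicate 1. Without the 3 satellite arrays of day 2 the satellite counts for days 4 and 8 were 23 and 24, and the endothelial counts were 17, 7 and 2.

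**Figure D1:**
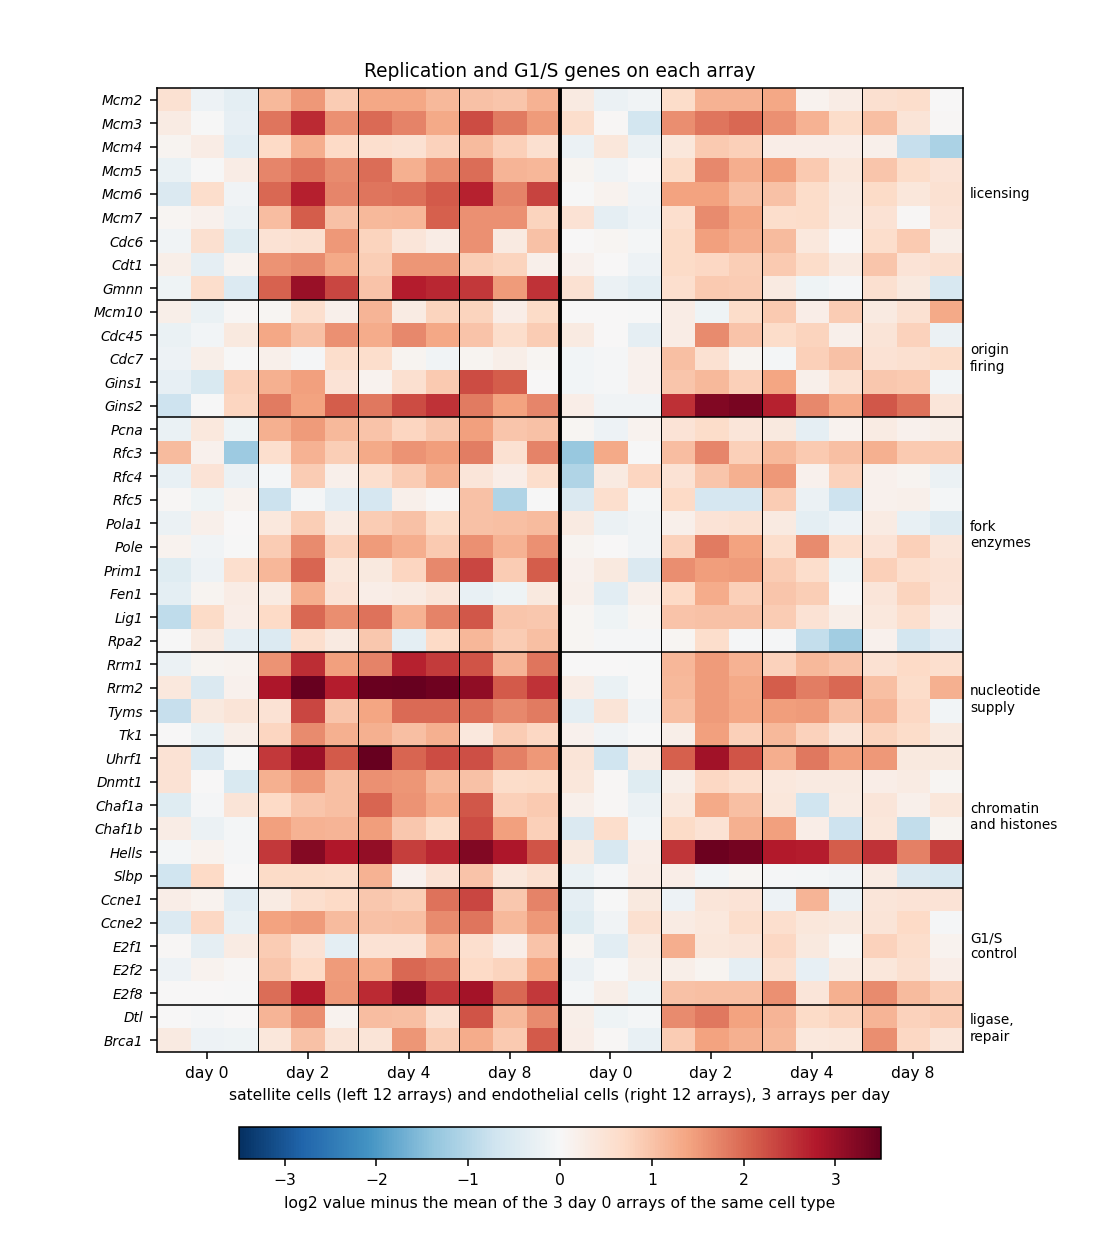
Each row is a gene and each column an array, and colour gives the log2 value minus the mean of the 3 day 0 arrays of the same cell type. Satellite arrays (left) stay red through day 8, with 24 members called there, while endothelial arrays (right) are reddest on day 2, with 16 called, and pale by day 8, with 2 called.

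Across the 6 comparisons with day 0, 29 members rose at least once, as did 17.0% of all genes tested, and 12 never did. The 16 members that rose in endothelial cells on some day (5.28% of all genes) all rose in satellite cells on some day too. The share of all genes that rose in both was 2.79%, and 2.49% rose in endothelial cells and on no day in satellite cells, which no member did. The 13 others rose in satellite cells and on no day in endothelial cells (11.8% of all genes). Whether those 13 responded differently in the cell types is a matter for the test of the difference, given after the roles. In satellite cells 16 members rose on all 3 days, against 1.97% of all genes. In endothelial cells the 2 members that did so (0.711% of all genes) were Hells, which remodels chromatin, and E2f8, a repressor that switches E2F targets off. On day 0 most members were dim: 31 of the 41 in satellite cells and 30 in endothelial cells averaged less than 1 log2 unit above the median of their arrays, so their log2 differences may understate the rise and no fold is given for them. A largest rise named below is therefore the largest fitted difference, and the order among members dim on day 0 is not settled. In both cell types all day 0 values of Hells, Dtl, Brca1, Pole, E2f8, E2f2 and Fen1 lay under the lowest array median of 4.11. These members passed the filter only through arrays after injury, so their place among the genes tested rests on higher values there. Their rises are a description.

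The E2F element was looked for in the promoters of the members. Many such genes are known to be transcribed under E2F factors, so the share among members is a description and no independent support. RefSeq windows on GRCm38.p6, from 250 bases before to 50 bases after each gene start, were found for 35 of the 41 members. The letters searched on both strands were TTTCCCGC, TTTCGCGC, TTTGCCGC and TTTGGCGC. They were present in 14 of the 35 members (40.0%), in 490 of 10895 genes tested that have a window (4.50%), and in 704 of all 27025 genes with a window (2.61%). Windows with at least 2 matches, some of them overlapping, were found in 6 members (17.1%) and in 29 of all genes (0.107%). The pentamer CCAAT was present in 62.9% of members and 41.1% of all genes, and TTTGAA, the cell cycle homology region of late cell cycle genes, in 20.0% of members and 20.2% of all genes. Among the genes tested that have a window, the shares were 42.1% for CCAAT and 14.5% for TTTGAA. A match describes letters and is no measurement of binding.

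The windows of Mcm3, Hells and Dtl are shown because each had the largest rise of its role in at least 1 cell type and holds a match. Of the other members with the largest rise of a role, Rrm2, Prim1 and E2f8 have a window without a match, and Gmnn and Gins2 have no window. Mcm6 was added after its values were seen, because its window holds 3 matches and its response differed between the cell types. All windows shown are written in the direction of the gene with the E2F matches in capitals. None of these matches shares a base with a CCAAT or TTTGAA match. The Mcm3 window lies on the minus strand at chr1:20820263-20820562, with matches starting 19 and 38 bases after the gene start.
Mcm3: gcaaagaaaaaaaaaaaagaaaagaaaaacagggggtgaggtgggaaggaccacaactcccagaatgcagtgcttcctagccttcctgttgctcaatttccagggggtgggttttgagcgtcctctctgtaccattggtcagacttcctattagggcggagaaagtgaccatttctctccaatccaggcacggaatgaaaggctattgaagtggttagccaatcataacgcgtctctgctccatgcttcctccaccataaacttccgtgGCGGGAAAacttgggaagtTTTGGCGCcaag
The Mcm6 window lies on the minus strand at chr1:128359656-128359955, with matches starting 110, 106 and 47 bases before the start, and the first pair overlaps.
Mcm6: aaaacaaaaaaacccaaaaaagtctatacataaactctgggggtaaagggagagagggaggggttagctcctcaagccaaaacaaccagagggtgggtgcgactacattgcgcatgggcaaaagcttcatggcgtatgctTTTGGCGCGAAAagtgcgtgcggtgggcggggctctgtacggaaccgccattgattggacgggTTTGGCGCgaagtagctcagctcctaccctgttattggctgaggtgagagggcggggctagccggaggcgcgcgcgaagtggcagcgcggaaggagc
The Hells window lies on the plus strand at chr19:38930740-38931039, with a match 62 bases before the start.
Hells: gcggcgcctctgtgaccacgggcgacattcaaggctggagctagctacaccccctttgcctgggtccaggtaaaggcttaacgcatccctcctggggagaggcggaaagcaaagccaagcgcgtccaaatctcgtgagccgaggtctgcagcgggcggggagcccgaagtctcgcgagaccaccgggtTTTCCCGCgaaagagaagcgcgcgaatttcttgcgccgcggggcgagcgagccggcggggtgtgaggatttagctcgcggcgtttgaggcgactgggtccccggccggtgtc
The Dtl window lies on the minus strand at chr1:191575495-191575794, with a match 8 bases before the start.
Dtl: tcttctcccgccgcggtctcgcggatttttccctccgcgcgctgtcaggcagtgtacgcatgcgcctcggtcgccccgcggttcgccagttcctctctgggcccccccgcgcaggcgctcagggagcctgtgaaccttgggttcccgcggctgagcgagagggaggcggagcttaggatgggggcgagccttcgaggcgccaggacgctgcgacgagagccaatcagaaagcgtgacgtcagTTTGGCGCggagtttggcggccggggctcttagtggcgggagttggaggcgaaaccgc
The 14 members with a match had median log2 differences of 1.43, 1.53 and 1.36 on satellite days 2, 4 and 8, and the 21 members with a window and no match had 0.91, 0.96 and 1.08. In endothelial cells these medians were 1.20, 0.64 and 0.55 with a match and 0.91, 0.58 and 0.52 without one. These medians are a description and were not tested.

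Of the 9 licensing genes, 7, 7 and 6 rose in satellite cells on days 2, 4 and 8, and 5, 1 and 0 rose in endothelial cells. Among the helicase subunits, Mcm2, Mcm3, Mcm5, Mcm6 and Mcm7 rose on every later day in satellite cells and on day 2 in endothelial cells. Mcm3 was the licensing gene with the largest rise in endothelial cells. In satellite cells its log2 values were 4.90, 4.61 and 4.34 on day 0, 6.50, 7.23 and 6.22 on day 2, 6.59, 6.34 and 5.94 on day 4 and 6.91, 6.43 and 6.10 on day 8. Every later satellite array lay above every day 0 array, with rises of 2.03 ± 0.34, 1.68 ± 0.34 and 1.87 ± 0.34. In endothelial cells Mcm3 read 5.76, 5.18 and 4.49 on day 0, 6.78, 7.03 and 7.14 on day 2, 6.75, 6.36 and 5.79 on day 4 and 6.19, 5.58 and 5.18 on day 8. On day 2 the 3 endothelial arrays lay above all day 0 arrays (1.84 ± 0.34, adjusted p = 0.00172), and by day 8 the groups overlapped (0.51 ± 0.34, adjusted p = 0.588). The day 4 call in between (1.16 ± 0.34, adjusted p = 0.0467) was lost without any of 13 of the 24 arrays (adjusted p up to 0.229). Mcm3 kept it without any of satellite day 0 replicate 1, satellite day 2 replicates 2 and 3, satellite day 4 replicates 1 and 3, satellite day 8 replicates 1 and 3, endothelial day 0 replicate 1, endothelial day 4 replicate 3 and endothelial day 8 replicates 1 and 3.

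The rises of the other subunits are given as log2 differences. Mcm2 rose by 1.18 ± 0.30, 1.29 ± 0.30 and 1.08 ± 0.30 in satellite cells and by 1.02 ± 0.30 (adjusted p = 0.0348) on endothelial day 2. Mcm5 rose by 1.76 ± 0.29, 1.60 ± 0.29 and 1.44 ± 0.29 in satellite cells and by 1.21 ± 0.29 (adjusted p = 0.0114) on endothelial day 2. Mcm7 rose by 1.40 ± 0.34, 1.47 ± 0.34 and 1.33 ± 0.34 in satellite cells and by 1.20 ± 0.34 (adjusted p = 0.0305) on endothelial day 2. These subunits thus rose in both cell types on day 2. Mcm4, the other subunit of the ring, was not called against day 0 in either cell type. It averaged 6.07, 6.96, 6.70 and 6.91 in satellite cells on days 0, 2, 4 and 8. In endothelial cells it averaged 6.31, 7.03, 6.54 and 5.74, so its day 8 mean lay below day 0 there. Some of the calls hung on single arrays: Mcm2 on satellite day 8 was lost without any of satellite day 0 replicates 2 and 3 and satellite day 8 replicates 1, 2 and 3 (adjusted p up to 0.113). Mcm2 on endothelial day 2 was lost without any of endothelial day 0 replicates 2 and 3 and endothelial day 2 replicates 2 and 3 (adjusted p up to 0.123). Mcm5 on endothelial day 2 was lost without endothelial day 2 replicate 2 (adjusted p up to 0.0763). Mcm7 on satellite day 8 was lost without any of satellite day 0 replicate 3 and satellite day 8 replicates 1 and 2 (adjusted p up to 0.0697). Mcm7 on endothelial day 2 was lost without any of endothelial day 0 replicates 2 and 3 and endothelial day 2 replicates 2 and 3 (adjusted p up to 0.15).

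Gmnn, the inhibitor of Cdt1, had the largest licensing rise in satellite cells and no call in endothelial cells. In satellite cells its values were 3.23, 4.00 and 2.90 on day 0, 5.45, 6.39 and 5.71 on day 2, 4.36, 6.13 and 6.02 on day 4 and 5.85, 4.88 and 5.92 on day 8. All later satellite arrays lay above day 0, with replicate 1 of day 4 closest to it. The rises were 2.47 ± 0.43 (adjusted p = 0.000138) on day 2, 2.13 ± 0.43 (adjusted p = 0.00125) on day 4 and 2.17 ± 0.43 (adjusted p = 0.00204) on day 8. In endothelial cells it read 5.39, 4.65 and 4.51 on day 0, 5.43, 5.77 and 5.73 on day 2, 5.17, 4.71 and 4.80 on day 4 and 5.40, 5.18 and 4.28 on day 8, and the day 2 difference was 0.80 ± 0.43 (adjusted p = 0.291). The starting levels differed as well: Gmnn was lower in satellite than in endothelial cells on day 0 (-1.47 ± 0.43, adjusted p = 0.0149). The Gmnn call was lost without any of satellite day 0 replicates 1 and 3 and endothelial day 0 replicate 1 (adjusted p up to 0.0836).

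Mcm6 was the other member with a lower level in satellite cells before injury. It had 4.81, 5.94 and 5.18 in satellite cells against 6.63, 6.77 and 6.52 in endothelial cells on day 0, with no overlap (-1.33 ± 0.29, adjusted p = 0.00183). By day 8 satellite cells had 8.00, 7.05 and 7.66, against 7.30, 7.05 and 7.16 in endothelial cells, and the lowest satellite array equalled the lowest endothelial one to 2 decimals. Relative to day 0, Mcm6 rose by 2.14 ± 0.29, 1.98 ± 0.29 and 2.26 ± 0.29 in satellite cells. In endothelial cells it rose by 1.29 ± 0.29 on day 2, which is 2.44-fold, and differed by 0.65 ± 0.29 and 0.53 ± 0.29 later with no call. Cdt1, the loader that Gmnn blocks, rose in satellite cells on days 2 and 4 (1.52 ± 0.24 and 1.31 ± 0.24) and was 0.61 ± 0.24 above day 0 on day 8, with no call on any day in endothelial cells.

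Among the 5 origin firing genes, Gins2, a GINS subunit of the active helicase, had the largest rise in both cell types. In satellite cells it read 3.83, 4.55 and 5.32 on day 0, 6.38, 5.97 and 6.70 on day 2, 6.40, 6.85 and 7.10 on day 4 and 6.39, 5.97 and 6.27 on day 8, and it rose by 1.78 ± 0.42, 2.22 ± 0.42 and 1.64 ± 0.42. The satellite call of day 8 was lost without any of satellite day 0 replicate 1 and satellite day 8 replicates 1 and 3 (adjusted p up to 0.0942). In endothelial cells Gins2 read 4.33, 3.96 and 3.97 on day 0, 6.65, 7.33 and 7.41 on day 2, 6.78, 5.78 and 5.39 on day 4 and 6.26, 5.98 and 4.51 on day 8. All endothelial arrays of day 2 lay above all of day 0, with a rise of 3.05 ± 0.42 (adjusted p = 9.71e-05). On day 4 it was 1.90 ± 0.42 (adjusted p = 0.00683) above day 0, and on day 8 it was 1.5 ± 0.42 (adjusted p = 0.0681), with no call. The day 4 call was lost without endothelial day 4 replicate 1 (adjusted p up to 0.0584). Cdc45, its partner in the helicase, rose in satellite cells on days 2 and 4 (1.34 ± 0.31 and 1.45 ± 0.31) and was not called in endothelial cells (0.97 ± 0.31, adjusted p = 0.0524 on day 2).

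Of the 10 fork genes, 4, 2 and 5 rose in satellite cells on days 2, 4 and 8, and 2, 0 and 0 rose in endothelial cells. Prim1, the catalytic subunit of primase that lays the RNA primer, had the largest rise of this role in both cell types. In satellite cells it read 3.75, 4.00 and 4.77 on day 0, 5.33, 6.21 and 4.57 on day 2, 4.52, 4.92 and 5.85 on day 4 and 6.51, 5.08 and 6.30 on day 8. The day 2 arrays overlapped those of day 0 (1.20 ± 0.43, adjusted p = 0.0396), and on day 8 all 3 lay above (1.79 ± 0.43, adjusted p = 0.00922). In endothelial cells Prim1 read 4.66, 4.84 and 3.99 on day 0, 6.12, 5.97 and 5.99 on day 2, 5.38, 5.12 and 4.36 on day 4 and 5.34, 5.10 and 4.99 on day 8, with all day 2 arrays above day 0 (1.53 ± 0.43, adjusted p = 0.027). The satellite day 2 call of Prim1 was lost without any of satellite day 0 replicates 1 and 2 and satellite day 2 replicates 1 and 2 (adjusted p up to 0.202). Its satellite day 8 call was lost without either of satellite day 8 replicates 1 and 3 (adjusted p up to 0.0545), and its endothelial call was lost without any of endothelial day 0 replicates 1 and 3 and endothelial day 2 replicates 1, 2 and 3 (adjusted p up to 0.124).

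Pcna, the sliding clamp that holds the polymerases on DNA, was bright before injury and rose in satellite cells on days 2 and 8. In satellite cells it read 9.24, 9.83 and 9.31 on day 0, 10.71, 10.94 and 10.60 on day 2, 10.47, 10.21 and 10.41 on day 4 and 10.89, 10.43 and 10.49 on day 8. The rise was 2.44-fold on day 2 (1.29 ± 0.20, adjusted p = 5.62e-05) and 2.21-fold on day 8 (1.14 ± 0.20, adjusted p = 0.000851). The day 8 call of Pcna was lost without satellite day 8 replicate 1 (difference down to 0.99). On day 4 it passed the p threshold but not the size threshold (0.90 ± 0.20, adjusted p = 0.00347). In endothelial cells it read 10.07, 9.80 and 10.11 on day 0, 10.46, 10.62 and 10.42 on day 2, 10.33, 9.69 and 10.11 on day 4 and 10.28, 10.15 and 10.19 on day 8, and no day was called (0.51 ± 0.20, adjusted p = 0.133 on day 2). Pole, the catalytic subunit of polymerase epsilon, rose on all 3 days in satellite cells (1.12 ± 0.29, 1.22 ± 0.29 and 1.47 ± 0.29) and on day 2 in endothelial cells (1.35 ± 0.29). The satellite day 2 call of Pole was lost without satellite day 2 replicate 2 (difference down to 0.85). Lig1, which seals the lagging strand, rose on all 3 days in satellite cells (1.45 ± 0.37, 1.61 ± 0.37 and 1.36 ± 0.37) and differed by 1.02 ± 0.37 (adjusted p = 0.0971) on endothelial day 2. The satellite day 8 call of Lig1 was lost without either of satellite day 0 replicate 1 and satellite day 8 replicate 1 (adjusted p up to 0.156). Pola1, the catalytic subunit of polymerase alpha, was called on satellite day 8 (1.06 ± 0.23, adjusted p = 0.00449). This call of Pola1 was lost without satellite day 0 replicate 1 (difference down to 0.96).

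All 4 nucleotide supply genes rose in satellite cells on days 2 and 4. Rrm2, the small subunit of ribonucleotide reductase that cells make in S phase, had the largest satellite rise of the 41 members on day 2 and day 4. In satellite cells it read 4.69, 3.82 and 4.48 on day 0, 7.16, 8.10 and 7.06 on day 2, 7.79, 7.88 and 7.73 on day 4 and 7.43, 6.49 and 6.87 on day 8. Every later satellite array lay well above every day 0 array, and the rises were 3.11 ± 0.29 (adjusted p = 7.72e-08) on day 2, 3.47 ± 0.29 (adjusted p = 3.20e-08) on day 4 and 2.60 ± 0.29 (adjusted p = 4.59e-06) on day 8. In endothelial cells Rrm2 read 4.98, 4.49 and 4.70 on day 0, 5.85, 6.20 and 6.05 on day 2, 6.86, 6.51 and 6.73 on day 4 and 5.78, 5.36 and 5.96 on day 8. It rose there by 1.31 ± 0.29 (adjusted p = 0.00579) on day 2 and 1.97 ± 0.29 (adjusted p = 0.000146) on day 4, and on day 8 the arrays still lay above day 0 without a call (0.98 ± 0.29, adjusted p = 0.0823). From day 2 on, every satellite array lay above every endothelial array of the same day.

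Rrm1, the large subunit of the same enzyme, rose by 1.86 ± 0.29, 2.29 ± 0.29 and 1.75 ± 0.29 in satellite cells, and by 1.28 ± 0.29 (adjusted p = 0.00687) in endothelial cells on day 2, which is 2.43-fold. Tyms, which makes thymidylate, rose by 1.26 ± 0.40, 1.78 ± 0.40 and 1.80 ± 0.40 in satellite cells and by 1.30 ± 0.40 (adjusted p = 0.0454) on endothelial day 2. The satellite day 2 call of Tyms was lost without either of satellite day 0 replicate 1 and satellite day 2 replicate 2 (adjusted p up to 0.155). Its endothelial call was lost without any of 14 of the 24 arrays (adjusted p up to 0.161). Tyms kept it without any of satellite day 0 replicates 1, 2 and 3, satellite day 2 replicates 1, 2 and 3, satellite day 4 replicate 1, endothelial day 0 replicate 2 and endothelial day 8 replicates 1 and 3. Tk1, which salvages thymidine, rose in satellite cells on days 2 and 4 (1.22 ± 0.27 and 1.17 ± 0.27), and in endothelial cells its day 2 difference was 0.82 ± 0.27 (adjusted p = 0.0675).

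Of the 6 genes that copy chromatin and supply histones, 4 rose on each day in satellite cells, and 2, 2 and 1 rose in endothelial cells. Hells, a remodeller needed for DNA methylation, had the largest fitted endothelial difference of the 41 members on each day, from a dim level on day 0. On day 2 it did not stand apart from Gins2, also dim on day 0 (3.09 ± 0.33 for Hells and 3.05 ± 0.42 for Gins2). In satellite cells Hells read 2.77, 2.95 and 2.79 on day 0, 5.31, 6.04 and 5.63 on day 2, 5.92, 5.25 and 5.47 on day 4 and 6.08, 5.67 and 5.04 on day 8, with rises of 2.82 ± 0.33, 2.71 ± 0.33 and 2.76 ± 0.33. In endothelial cells it read 3.41, 2.50 and 3.28 on day 0, 5.56, 6.49 and 6.41 on day 2, 5.83, 5.82 and 5.18 on day 4 and 5.60, 4.82 and 5.49 on day 8. All later arrays lay above all day 0 arrays in both cell types, and the endothelial rises were 3.09 ± 0.33 (adjusted p = 4.34e-06) on day 2, 2.55 ± 0.33 (adjusted p = 3.78e-05) on day 4 and 2.24 ± 0.33 (adjusted p = 0.000407) on day 8. The satellite response minus the endothelial response of Hells was -0.27 ± 0.46 on day 2 (95% interval -1.23 to 0.69), 0.16 ± 0.46 on day 4 (95% interval -0.79 to 1.12) and 0.52 ± 0.46 on day 8 (95% interval -0.43 to 1.48). None of these differences was called.

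Uhrf1, which guides the methyltransferase Dnmt1 to newly copied DNA, rose by 2.54 ± 0.41, 2.62 ± 0.41 and 1.85 ± 0.41 in satellite cells and by 2.42 ± 0.41 and 1.51 ± 0.41 on endothelial days 2 and 4. The day 4 call was lost without any of endothelial day 0 replicate 2 and endothelial day 4 replicates 1, 2 and 3 (adjusted p up to 0.156), and the endothelial difference on day 8 was 0.73 ± 0.41 (adjusted p = 0.477). Dnmt1 itself rose in satellite cells on days 2 and 4 (1.27 ± 0.25 and 1.43 ± 0.25) and was not called in endothelial cells (0.50 ± 0.25, adjusted p = 0.252 on day 2). Chaf1a and Chaf1b code for subunits of the histone chaperone CAF-1. Chaf1a rose in satellite cells on days 4 and 8 (1.64 ± 0.35 and 1.30 ± 0.35), and Chaf1b on days 2 and 8 (1.28 ± 0.45 and 1.51 ± 0.45). Neither was called in endothelial cells. The day 8 call of Chaf1a was lost without any of satellite day 0 replicates 1 and 2 and satellite day 8 replicate 1 (adjusted p up to 0.136). The day 2 call of Chaf1b was lost without any of satellite day 0 replicates 2 and 3 and satellite day 2 replicates 1, 2 and 3 (adjusted p up to 0.101). Its day 8 call was lost without any of satellite day 0 replicates 1, 2 and 3 and satellite day 8 replicates 1 and 2 (adjusted p up to 0.181).

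Among the 5 G1/S control genes, E2f8 rose in both cell types on all 3 days. In satellite cells it read 3.82, 3.82 and 3.79 on day 0, 5.77, 6.58 and 5.33 on day 2, 6.41, 6.95 and 6.29 on day 4 and 6.72, 5.82 and 6.28 on day 8. The day 0 arrays lay close together and every later array was well above them, with rises of 2.09 ± 0.32 (adjusted p = 3.74e-05) on day 2, 2.74 ± 0.32 (adjusted p = 3.84e-06) on day 4 and 2.46 ± 0.32 (adjusted p = 2.84e-05) on day 8. In endothelial cells it read 3.82, 4.09 and 3.71 on day 0, 4.90, 4.93 and 4.93 on day 2, 5.47, 4.29 and 5.12 on day 4 and 5.52, 4.97 and 4.76 on day 8. The endothelial rises were 1.05 ± 0.32 (adjusted p = 0.043) on day 2, 1.09 ± 0.32 (adjusted p = 0.0434) on day 4 and 1.21 ± 0.32 (adjusted p = 0.0483) on day 8. These endothelial calls lay near the threshold. The day 2 call was lost without any of 11 of the 24 arrays (adjusted p up to 0.132). E2f8 kept it without any of satellite day 0 replicate 1, satellite day 2 replicates 1, 2 and 3, satellite day 4 replicates 1, 2 and 3, satellite day 8 replicates 1 and 2, endothelial day 4 replicates 1 and 2 and endothelial day 8 replicates 1 and 3. The day 4 call was lost without any of 12 of the 24 arrays (adjusted p up to 0.226). E2f8 kept it without any of satellite day 0 replicate 1, satellite day 2 replicates 1, 2 and 3, satellite day 4 replicates 1, 2 and 3, satellite day 8 replicates 1 and 2, endothelial day 4 replicate 2 and endothelial day 8 replicates 1 and 3. The day 8 call was lost without any of 17 of the 24 arrays (adjusted p up to 0.177). E2f8 kept it without any of satellite day 2 replicates 2 and 3, satellite day 4 replicate 2, satellite day 8 replicates 1 and 2 and endothelial day 4 replicates 1 and 2.

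E2f2, an activator that opens S phase genes, rose in satellite cells on days 2 and 4. Its satellite values were 3.53, 3.83 and 3.73 on day 0, 4.67, 4.39 and 5.18 on day 2, 4.99, 5.70 and 5.56 on day 4 and 4.40, 4.48 and 5.12 on day 8. All later satellite arrays lay above day 0, with rises of 1.05 ± 0.26 (adjusted p = 0.00449) on day 2 and 1.72 ± 0.26 (adjusted p = 8.54e-05) on day 4. The day 2 call was lost without either of satellite day 0 replicate 1 and satellite day 2 replicate 3 (difference down to 0.84), and the day 8 difference of 0.97 ± 0.26 (adjusted p = 0.0226) was just under the size threshold. Its endothelial values were 3.30, 3.49 and 3.69 on day 0, 3.70, 3.58 and 3.19 on day 2, 4.07, 3.21 and 3.77 on day 4 and 3.88, 4.05 and 3.72 on day 8, which overlapped day 0 on days 2 and 4, and no day was called. All of these endothelial values, and the satellite values of day 0, lay under the lowest array median of 4.11. E2f2 thus passed the filter only through satellite arrays after injury. A smaller endothelial response cannot be told apart here from a signal too dim to read.

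Cyclin E, which activates the kinase Cdk2 at the start of S phase, is made from Ccne1 and Ccne2. In satellite cells Ccne1 read 5.01, 4.89 and 4.42 on day 0, 5.05, 5.35 and 5.47 on day 2, 5.71, 5.64 and 6.68 on day 4 and 7.11, 5.73 and 6.52 on day 8. The rises were 1.24 ± 0.37 (adjusted p = 0.0235) on day 4 and 1.68 ± 0.37 (adjusted p = 0.00527) on day 8. The day 4 call was lost without either of satellite day 0 replicate 3 and satellite day 4 replicate 3 (adjusted p up to 0.139). In endothelial cells Ccne1 read 4.34, 4.64 and 5.00 on day 0, 4.48, 5.09 and 5.13 on day 2, 4.47, 5.84 and 4.45 on day 4 and 5.09, 5.13 and 5.13 on day 8, where 1 array of day 4 stood above the rest and no day was called. Ccne2 rose on all 3 days in satellite cells (1.34 ± 0.30, 1.25 ± 0.30 and 1.51 ± 0.30), and its endothelial differences were 0.42 ± 0.30, 0.45 ± 0.30 and 0.38 ± 0.30 with no call.

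Dtl, the receptor through which a ubiquitin ligase destroys Cdt1 during S phase, and Brca1, a repair protein at stalled forks, rose on 1 day in each cell type. Both rose in satellite cells on day 8 (1.67 ± 0.30, adjusted p = 0.00107 for Dtl and 1.45 ± 0.35, adjusted p = 0.0105 for Brca1) and in endothelial cells on day 2 (1.63 ± 0.30, adjusted p = 0.00174 for Dtl and 1.17 ± 0.35, adjusted p = 0.0393 for Brca1). In satellite cells Dtl read 3.28, 3.22 and 3.28 on day 0, 4.46, 4.89 and 3.39 on day 2, 4.33, 4.30 and 3.81 on day 4 and 5.45, 4.40 and 4.92 on day 8. On satellite day 2 its difference of 0.99 ± 0.30 (adjusted p = 0.0178) missed the size threshold by a narrow margin, and replicate 3 lay close to day 0. In endothelial cells Dtl read 3.15, 2.79 and 2.87 on day 0, 4.58, 4.77 and 4.33 on day 2, 4.13, 3.60 and 3.71 on day 4 and 4.12, 3.75 and 3.82 on day 8, with all later arrays above day 0. The satellite minus endothelial response on day 2 was -0.64 ± 0.43 (95% interval -1.53 to 0.26, adjusted p = 0.404) for Dtl and -0.55 ± 0.50 (95% interval -1.58 to 0.48, adjusted p = 0.559) for Brca1, so the responses were not shown to differ on that day. The satellite day 8 call of Brca1 was lost without satellite day 8 replicate 3 (adjusted p up to 0.0816), and its endothelial call was lost without any of endothelial day 0 replicates 1, 2 and 3 and endothelial day 2 replicates 1, 2 and 3 (adjusted p up to 0.14).

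**Figure D2:**
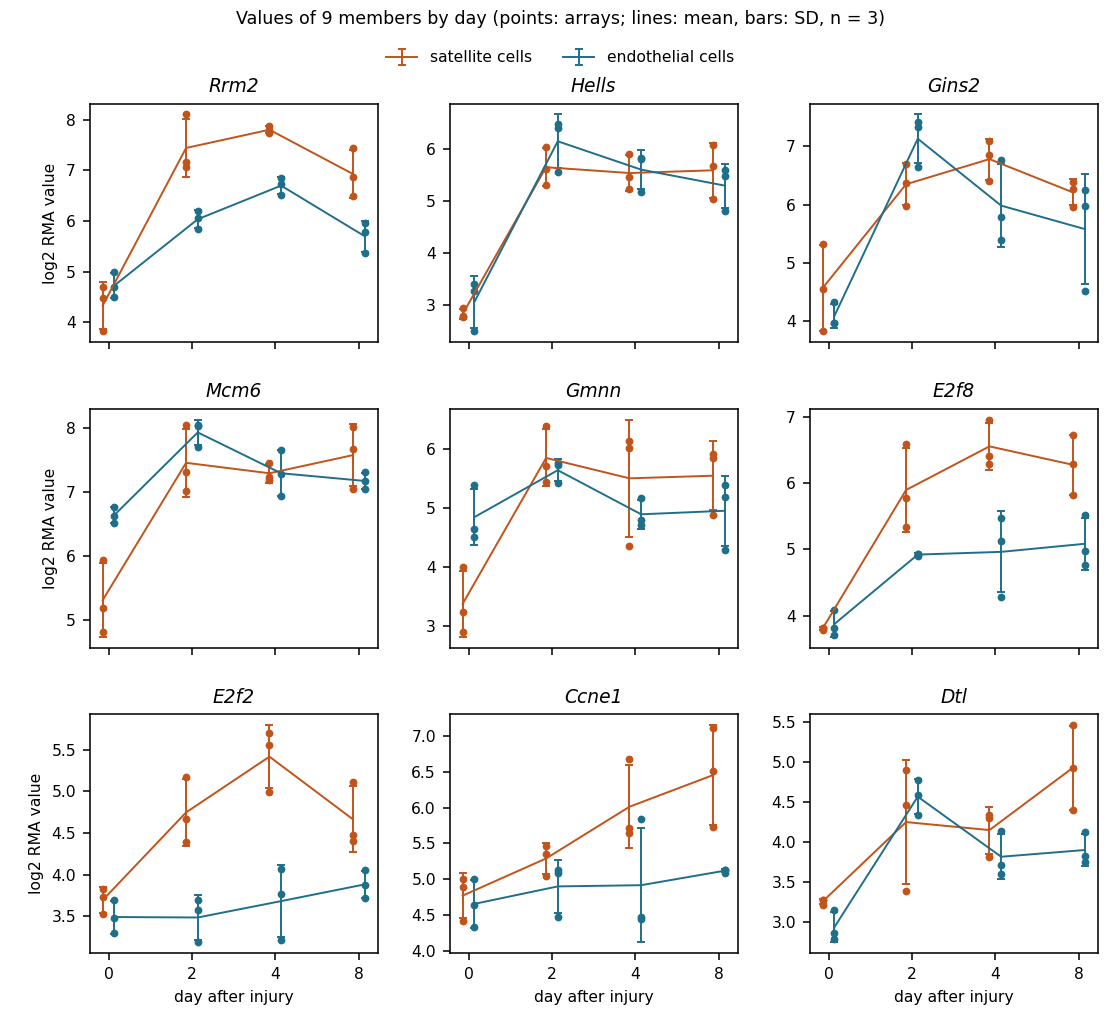
Log2 values of 9 members by day after injury, with a point per array, lines through the group means and bars of 1 SD (n = 3). On the 3 later days the satellite means of Rrm2 and E2f2 lie above the endothelial ones, the Hells means lie close together, and the endothelial means of Gins2 and Dtl are highest on day 2.

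The 12 members that rose on no day came from 5 of the 7 roles, and each is given on the day of its largest difference. Mcm4, a helicase subunit, had 6.76, 7.34 and 6.77 on satellite day 2 against 6.17, 6.34 and 5.70 on day 0, which passed the p but not the size threshold (0.88 ± 0.28, adjusted p = 0.0229). A call was made without satellite day 0 replicate 2 (adjusted p down to 0.00769). Cdc6, which loads the helicase with Cdt1, had 4.47, 5.25 and 5.08 on endothelial day 2 against 3.82, 3.88 and 3.74 on day 0 (1.12 ± 0.35, adjusted p = 0.0514). All 3 arrays lay above day 0, and a call was made without any of satellite day 0 replicate 2, satellite day 2 replicates 2 and 3, satellite day 8 replicates 1 and 2, endothelial day 2 replicate 1 and endothelial day 4 replicates 1 and 3 (adjusted p down to 0.0378).

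Mcm10, which helps to start the helicase, had 5.47, 4.57 and 5.07 on satellite day 4 against 4.50, 4.04 and 4.32 on day 0 (0.75 ± 0.29, adjusted p = 0.0817). Cdc7, the kinase that fires origins, had 4.05, 4.95 and 5.14 on endothelial day 4 against 4.02, 4.08 and 4.26 on day 0 (0.60 ± 0.27, adjusted p = 0.234). Gins1, another GINS subunit, had 5.81, 5.66 and 3.55 on satellite day 8 against 3.24, 3.00 and 4.34 on day 0 (1.48 ± 0.48, adjusted p = 0.0595), so 2 of 3 arrays were high and replicate 3 was within the day 0 range. A call of Gins1 was made without either of satellite day 0 replicate 3 and satellite day 8 replicate 3 (adjusted p down to 0.0021).

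The 3 clamp loader subunits among the members, Rfc3, Rfc4 and Rfc5, are all in this group. Rfc3 had 6.25, 6.52 and 6.40 on satellite day 4 against 6.06, 5.09 and 3.67 on day 0 (1.45 ± 0.53, adjusted p = 0.0656), with a wide spread on day 0. A call of Rfc3 was made without any of satellite day 0 replicate 1 and endothelial day 0 replicates 1 and 2 (adjusted p down to 0.0147). Rfc4 had 5.01, 5.30 and 5.66 on satellite day 4 against 4.16, 4.88 and 4.20 on day 0 (0.92 ± 0.39, adjusted p = 0.118). Rfc5 had 6.49, 7.18 and 6.86 on satellite day 2 against 7.28, 7.07 and 7.35 on day 0 (-0.39 ± 0.45, adjusted p = 0.583), and it was the only member whose satellite mean was highest on day 0. Fen1, the flap nuclease of the lagging strand, had 4.37, 4.98 and 4.50 on endothelial day 2 against 3.86, 3.31 and 3.86 on day 0 (0.94 ± 0.29, adjusted p = 0.0442), past the p but not the size threshold. Rpa2, which coats single strands, had 6.73, 6.44 and 6.62 on satellite day 8 against 5.56, 5.88 and 5.25 on day 0 (1.03 ± 0.34, adjusted p = 0.0644). All 3 arrays lay above day 0, and a call was made without any of satellite day 2 replicate 1, satellite day 4 replicate 2 and endothelial day 4 replicate 1 (adjusted p down to 0.0386).

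Slbp, which binds the stem-loop of histone mRNAs, had 7.30, 7.29 and 7.27 on satellite day 2 against 5.93, 7.33 and 6.64 on day 0 (0.66 ± 0.31, adjusted p = 0.121), and a call was made without satellite day 0 replicate 2 (adjusted p down to 0.0204). E2f1, an E2F activator, had 4.93, 4.93 and 5.58 on satellite day 4 against 4.46, 4.12 and 4.71 on day 0 (0.72 ± 0.33, adjusted p = 0.147). All 3 satellite arrays of E2f1 lay above day 0, and so did the endothelial arrays of day 2, which read 5.60, 4.71 and 4.76 against 4.38, 3.95 and 4.62 on day 0 (0.70 ± 0.33, adjusted p = 0.205).

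The day of the highest group mean was spread over the later days in satellite cells and was mostly day 2 in endothelial cells. In satellite cells 1 member (Rfc5) had its highest mean on day 0, 11 on day 2, 16 on day 4 and 13 on day 8. In endothelial cells 32 of the 41 members had it on day 2, 4 on day 4 (Cdc7, Rrm2, Tyms and Ccne2) and 5 on day 8 (Mcm10, Rfc5, Ccne1, E2f2 and E2f8). The mean of day 8 lay below that of day 2 for 21 members in satellite cells and for 35 in endothelial cells. The days of the highest mean were not counted over all genes, so it is not known whether this timing is particular to the members. Over all genes too, the share that rose in endothelial cells was highest on day 2 (3.73%, 3.11% and 1.11% on days 2, 4 and 8). All 3 arrays of a later day lay above all 3 of day 0 for 30, 33 and 31 members in satellite cells (17.9%, 16.8% and 14.6% of all genes) and for 26, 18 and 22 members in endothelial cells (16.1%, 13.4% and 11.0% of all genes), on days 2, 4 and 8.

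No step between later days was called for any member. In satellite cells no member was called by limma between day 4 and day 2 (10.5% of all genes in either direction), with 2 higher and 0 lower at an unadjusted p under 0.05, or between day 8 and day 4 (1.68% of all genes), with 1 higher and 4 lower. One member was called for the satellite step of day 4 over day 2 without satellite day 2 replicate 2, and 1 for day 8 over day 4 without satellite day 8 replicate 1. In endothelial cells no member was called by limma between day 4 and day 2 (0.370% of all genes), although 8 were lower and 1 higher at an unadjusted p under 0.05. The median difference of the 41 in that step was -0.39, with 9 above 0, against 0.10 with 23 above 0 in satellite cells. Gins2, for example, differed by -1.15 ± 0.42 (adjusted p = 0.297). Between day 8 and day 4 in endothelial cells the count was also 0 (0.121% of all genes), with 2 lower and 0 higher unadjusted.

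A moderated F-test asked whether a gene differed between any of the 4 days, at an adjusted p under 0.05. It called 29 members in satellite cells, the same 29 that rose on at least 1 day, where 31.9% of all genes were called. It called 12 members in endothelial cells, where 8.34% of all genes were called. These 12 were Mcm3, Mcm4, Mcm5, Mcm6, Gins2, Pole, Rrm1, Rrm2, Uhrf1, Hells, E2f8 and Dtl. Mcm4 is among them although it rose on no day. Mcm2, Mcm7, Prim1, Tyms and Brca1 rose on endothelial day 2 but were not called by the F-test (adjusted p = 0.133, 0.113, 0.104, 0.0827 and 0.125). The endothelial count was 6 without endothelial day 2 replicate 2 and 7 without any of endothelial day 0 replicates 1, 2 and 3 and endothelial day 2 replicate 3.

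On each day the levels of satellite cells were also set against those of endothelial cells. On day 0 no member was higher in satellite cells (7.59% of all genes), with 0 higher at an unadjusted p under 0.05 in limma, and 2 were lower (9.43% of all genes), Mcm6 and Gmnn, with 7 lower unadjusted. The count of 2 was 1 without any of satellite day 0 replicates 1 and 3 and endothelial day 0 replicate 1, and it was 3 without satellite day 0 replicate 2. Centring each array on its median moved the median of all genes in this comparison by -0.16 (by -0.10 on day 2 and -0.12 on day 4) and changed the split of all calls to 864 higher and 1658 lower, against 1067 higher and 1326 lower as deposited. Mcm6 lay 1.32 and Gmnn 1.46 below the median of all genes on the deposited scale.

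After injury the called differences ran the other way, but most members lay higher in satellite cells only on days 4 and 8. The median level difference of the members, satellite minus endothelial, was -0.23, -0.12, 0.32 and 0.48 on days 0, 2, 4 and 8. On these days 11, 16, 32 and 34 of the 41 members lay above 0. On day 2, Rrm2 (1.41 ± 0.29, adjusted p = 0.00155) and E2f2 (1.26 ± 0.26, adjusted p = 0.00202) were higher in satellite cells, a smaller share than among all genes (5.82%). On day 4 the 5 higher members were Rrm2 (1.10 ± 0.29), Chaf1a (1.40 ± 0.35), Ccne1 (1.09 ± 0.37), E2f2 (1.73 ± 0.26) and E2f8 (1.59 ± 0.32), where 5.20% of all genes were higher. On day 8 the 6 higher members were Mcm4 (1.17 ± 0.28), Pola1 (1.00 ± 0.23), Rrm2 (1.23 ± 0.29), Ccne1 (1.33 ± 0.37), E2f8 (1.19 ± 0.32) and Dtl (1.03 ± 0.30), where 7.05% of all genes were higher. The day 8 count was 2 without either of satellite day 8 replicate 1 and endothelial day 8 replicate 3. No member was called lower in satellite cells on these days in limma (6.31%, 7.73% and 6.88% of all genes), with 1, 0 and 1 lower at an unadjusted p under 0.05.

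Several of these level differences hung on single arrays. On day 4 the call of Chaf1a was lost without endothelial day 4 replicate 2 (adjusted p up to 0.0607). That of Ccne1 on day 4 was lost without any of 12 of the 24 arrays (adjusted p up to 0.226). Ccne1 kept it without any of satellite day 0 replicates 1 and 3, satellite day 2 replicates 1 and 2, satellite day 4 replicates 1 and 2, satellite day 8 replicates 1 and 2, endothelial day 0 replicates 1 and 3, endothelial day 2 replicate 1 and endothelial day 4 replicate 2. On day 8 the call of Mcm4 was lost without endothelial day 8 replicate 3 (difference down to 0.91). That of Pola1 was lost without any of satellite day 8 replicate 3 and endothelial day 8 replicates 2 and 3 (difference down to 0.85), and that of Rrm2 was lost without satellite day 8 replicate 1 (difference down to 0.98). The day 8 call of Ccne1 was lost without satellite day 8 replicate 1 (adjusted p up to 0.0931). That of E2f8 was lost without either of satellite day 8 replicate 1 and endothelial day 8 replicate 3 (adjusted p up to 0.0666), and that of Dtl was lost without any of satellite day 8 replicates 1 and 3 and endothelial day 8 replicates 2 and 3 (adjusted p up to 0.129). The day 2 calls of Rrm2 and E2f2, and the day 4 calls of Rrm2, E2f2 and E2f8, held whichever array was left out.

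The test of the difference between the responses asked which members rose more in satellite than in endothelial cells. On day 2 it called Rrm2 alone, a smaller share than among all genes (6.44%), on day 4 Rrm2, E2f2 and E2f8 (2.00%), and on day 8 Rrm2 and Mcm6 (1.39%). No member was called for a larger endothelial response in limma (5.03%, 2.24% and 0.811% of all genes), with 1, 0 and 0 at an unadjusted p under 0.05. The median difference in response over the 41 members was 0.16, 0.69 and 0.89 on days 2, 4 and 8, with 25, 36 and 36 members above 0, against medians of -0.03, 0.04 and 0.03 over all genes. After each array was centred on its median, the member medians were 0.22, 0.74 and 1.03, and after a further quantile normalization they were 0.29, 0.70 and 0.81. The day 8 split of all calls was 196 higher and 114 lower as deposited, 259 and 85 after centring, which moved the median of all genes by 0.14, and 167 and 150 after the quantile step.

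Rrm2 was the member called for a larger satellite response on all 3 days. The difference in response was 1.80 ± 0.40 on day 2 (95% interval 0.96 to 2.64, adjusted p = 0.00547), and the call held whichever array was left out. It was 1.5 ± 0.40 (adjusted p = 0.0366) on day 4. That call was lost without any of 10 of the 24 arrays (adjusted p up to 0.101). Rrm2 kept it without any of satellite day 0 replicate 1, satellite day 2 replicates 1, 2 and 3, satellite day 8 replicates 1, 2 and 3, endothelial day 0 replicate 2, endothelial day 2 replicates 1, 2 and 3 and endothelial day 8 replicates 1, 2 and 3. It was 1.62 ± 0.40 (adjusted p = 0.0355) on day 8. The Rrm2 call was lost without any of satellite day 0 replicates 2 and 3, satellite day 8 replicates 1 and 3, endothelial day 0 replicates 1 and 3 and endothelial day 8 replicates 1 and 2 (adjusted p up to 0.102). The leukocyte markers differed in response as well on day 2, with 12 of 18 called higher in satellite cells. On days 4 and 8 none of the 18 was called, with median differences of 0.51 and 1.07.

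E2f2 differed in response by 1.53 ± 0.37 (adjusted p = 0.0198) on day 4, with every endothelial value under the lowest array median. This call of E2f2 was lost without any of satellite day 4 replicates 2 and 3, endothelial day 0 replicate 3 and endothelial day 4 replicate 2 (adjusted p up to 0.0676). E2f8 differed by 1.65 ± 0.45 (adjusted p = 0.0389) on day 4. That call was lost without any of 10 of the 24 arrays (adjusted p up to 0.12). E2f8 kept it without any of satellite day 2 replicates 1, 2 and 3, satellite day 4 replicate 3, satellite day 8 replicates 1, 2 and 3, endothelial day 2 replicates 1, 2 and 3, endothelial day 4 replicate 1 and endothelial day 8 replicates 1, 2 and 3. Mcm6 differed by 1.73 ± 0.42 (adjusted p = 0.0293) on day 8, and its satellite level of day 0 was the lower one. The Mcm6 call was lost without any of satellite day 0 replicates 1 and 3, satellite day 8 replicates 1 and 3, endothelial day 0 replicates 1 and 2 and endothelial day 8 replicates 2 and 3 (adjusted p up to 0.078). These 3 genes code for an activator, a repressor and a helicase subunit, so the called differences did not belong to 1 role. The count on day 2 was 3 without satellite day 0 replicate 2, and 2 without either of satellite day 2 replicate 2 and satellite day 4 replicate 1. The count on day 4 was 6 without satellite day 2 replicate 2, 1 without any of satellite day 4 replicate 3, endothelial day 0 replicates 1 and 3 and endothelial day 4 replicate 3, and 0 without either of satellite day 4 replicate 2 and endothelial day 4 replicate 2. The count on day 8 was 1 without any of satellite day 0 replicate 1, endothelial day 0 replicates 2 and 3 and endothelial day 8 replicate 3, and 0 without any of satellite day 0 replicate 3, satellite day 8 replicates 1 and 3, endothelial day 0 replicate 1 and endothelial day 8 replicate 2. Without the 3 satellite arrays of day 2 the counts on days 4 and 8 were 4 and 3.

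**Figure D3:**
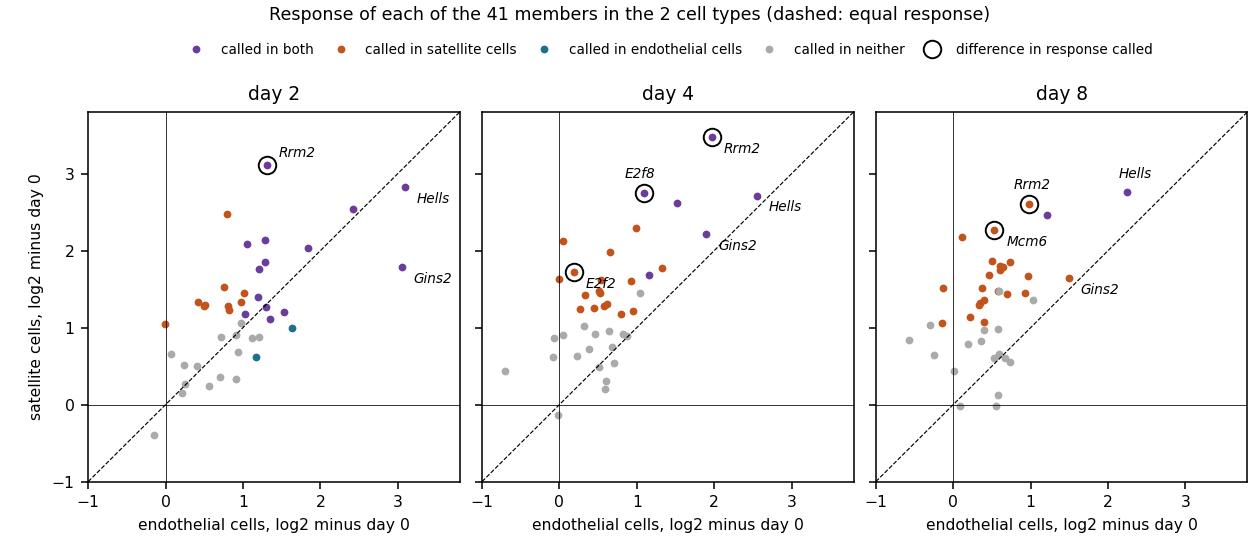
Each point is 1 of the 41 members, with its log2 difference from day 0 in satellite cells on the y axis and in endothelial cells on the x axis, for days 2, 4 and 8. Points lie on both sides of the dashed line of equal response on day 2, and 36 of 41 lie above it on days 4 and 8, with circles around the 1, 3 and 2 members whose difference in response was called.

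Members that were not called for a difference were not shown to respond alike. Gmnn had larger estimates than the called members on days 4 and 8, with wider errors, at 1.68 ± 0.60, 2.08 ± 0.60 and 2.06 ± 0.60 on days 2, 4 and 8, with adjusted p of 0.0765, 0.0544 and 0.0808. Its 95% interval on day 4 was 0.83 to 3.33. Gins2 was the member with the largest estimate in the endothelial direction, -1.26 ± 0.59 on day 2 (95% interval -2.50 to -0.03, adjusted p = 0.195). An F-test over the 3 days together called 4 members, Mcm6, Pola1, Rrm2 and E2f2 (12.5% of all genes). That count was 2 without any of satellite day 0 replicate 1, endothelial day 0 replicate 2 and endothelial day 8 replicates 2 and 3, 7 without either of satellite day 8 replicate 2 and endothelial day 4 replicate 1 and 10 without satellite day 2 replicate 2.

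The difference between the cell types in the steps between days was tested as well. For day 4 over day 2 no member was called by limma (5.40% of all genes), with 4 higher and 0 lower at an unadjusted p under 0.05, while the median over the members was 0.47 with 34 of 41 above 0. Gins2 differed by 1.58 ± 0.59 (adjusted p = 0.131). One member was called without any of satellite day 2 replicate 2, satellite day 8 replicates 1 and 2 and endothelial day 2 replicate 1. For day 8 over day 4 none was called (0.220% of all genes), with 1 higher and 2 lower unadjusted, and the median was 0.07. The split of all calls in that comparison was 16 higher and 15 lower as deposited and 24 higher and 12 lower after centring on array medians, which moved the median of all genes by 0.10.

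Further genes of the pathway were counted as well. For these and the lists below, the shares of all genes that rose or fell from day 0 are those given above beside the members. Of 48 other replication genes listed, such as the Orc genes and other polymerase subunits, 43 were tested. Of these, 9, 9 and 7 rose in satellite cells and 5, 1 and 0 in endothelial cells on days 2, 4 and 8, and 1 fell, on endothelial day 8. Their median differences were 0.49, 0.41 and 0.47 in satellite cells and 0.56, 0.11 and 0.07 in endothelial cells. In satellite cells Dbf4, the partner of Cdc7, rose by 1.85 ± 0.38, 1.67 ± 0.38 and 1.98 ± 0.38. Nasp, a histone chaperone, rose by 1.91 ± 0.26 on satellite day 2. Its satellite response exceeded the endothelial one by 1.59 ± 0.37 (adjusted p = 0.0136) on day 4, a call that held whichever array was left out. The difference was 1.25 ± 0.37 (adjusted p = 0.0294) on day 2. This call of Nasp was lost without any of satellite day 0 replicate 2, satellite day 2 replicate 3, endothelial day 0 replicates 2 and 3 and endothelial day 2 replicate 1 (adjusted p up to 0.0804). On day 8 it was 1.60 ± 0.37 (adjusted p = 0.0213), a call lost without any of satellite day 8 replicate 3, endothelial day 0 replicates 2 and 3 and endothelial day 8 replicates 2 and 3 (adjusted p up to 0.0645). Pold2, a subunit of polymerase delta, differed the other way on day 2, with the larger response in endothelial cells (-1.64 ± 0.48, adjusted p = 0.0292). The Pold2 call was lost without any of satellite day 0 replicate 1, satellite day 2 replicates 1 and 3, endothelial day 0 replicates 1 and 3 and endothelial day 2 replicates 1 and 2 (adjusted p up to 0.0942). Its step of day 4 over day 2 was larger in satellite cells (1.86 ± 0.48, adjusted p = 0.0245), a call lost without any of satellite day 2 replicates 1 and 3, endothelial day 2 replicate 2 and endothelial day 4 replicates 1 and 2 (adjusted p up to 0.081). On day 0, 6 of the 43 were lower and none was higher in satellite than in endothelial cells (9.43% of all genes lower, 7.59% higher). The 4 with the largest differences kept that call whichever array was left out. They were Pola2, a subunit of polymerase alpha (-1.78 ± 0.39), Timeless, which protects forks (-1.69 ± 0.32), Dbf4 (-1.39 ± 0.38) and Topbp1, which helps to activate the checkpoint kinase Atr (-1.16 ± 0.26). The checkpoint kinase Chek1 rose by 1.57 ± 0.40, 1.74 ± 0.40 and 1.85 ± 0.40 in satellite cells, and by 1.64 ± 0.40 (adjusted p = 0.0126) on endothelial day 2. That call was lost without endothelial day 2 replicate 2 (adjusted p up to 0.0758). Chek1 also rose by 1.40 ± 0.40 (adjusted p = 0.0389) on endothelial day 4, a call lost without any of 5 of the 24 arrays (adjusted p up to 0.132). Cdca7, which works with Hells, rose in both cell types. It rose by 1.49 ± 0.39 and 2.06 ± 0.39 on satellite days 2 and 8, and by 1.75 ± 0.39 (adjusted p = 0.00628) on endothelial day 2. The gene that fell was Rrm2b, a reductase subunit that cells use outside S phase (-1.18 ± 0.30, adjusted p = 0.0434). The Rrm2b call was lost without any of 12 of the 24 arrays (adjusted p up to 0.239). Rrm2b kept it without any of satellite day 0 replicate 1, satellite day 2 replicates 1, 2 and 3, satellite day 4 replicates 1 and 2, satellite day 8 replicate 1, endothelial day 2 replicates 1 and 2, endothelial day 4 replicates 2 and 3 and endothelial day 8 replicate 1.

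Of 21 other G1/S control genes, 5, 3 and 6 rose and 1, 2 and 0 fell in satellite cells, and 3, 3 and 4 rose and none fell in endothelial cells. Their median differences were 0.41, 0.40 and 0.62 in satellite cells and 0.19, 0.16 and -0.06 in endothelial cells. Ccnd1, a cyclin D that starts the release of E2F, rose by 1.55 ± 0.28 in satellite and by 1.42 ± 0.28 in endothelial cells on day 2. Cdk4, the kinase of cyclin D, rose by 1.67 ± 0.31 on satellite day 4. Ccnd2, another cyclin D, fell on the same day (-1.80 ± 0.36, adjusted p = 0.00125). Myc, a transcription factor that drives growth, rose in endothelial cells by 3.76 ± 0.30, 3.43 ± 0.30 and 2.34 ± 0.30. Its response in satellite minus endothelial cells was -4.12 ± 0.43, -3.0 ± 0.43 and -2.00 ± 0.43, the opposite sign to the called members. On day 0 Myc was 3.47 ± 0.30 higher in satellite cells, so the cell types started from different levels. The day 8 difference of Myc was lost without endothelial day 8 replicate 3 (adjusted p up to 0.0507).

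Genes of mitosis, which follows S phase, were counted beside the replication genes. Of 24 tested of 25 listed, 20, 23 and 22 rose in satellite cells and 19, 23 and 17 in endothelial cells. Their median differences were 1.84, 2.22 and 2.02 in satellite cells and 1.73, 2.29 and 1.68 in endothelial cells on days 2, 4 and 8. In endothelial cells Top2a, which untangles copied chromosomes, rose by 3.57 ± 0.31, 4.40 ± 0.31 and 3.78 ± 0.31, and Ccna2, a cyclin of S phase and mitosis, by 2.43 ± 0.32, 3.30 ± 0.32 and 2.98 ± 0.32. For endothelial day 4 over day 2 the median over the mitosis genes was 0.62 with 23 of 24 above 0, against -0.39 with 9 of 41 above 0 for the replication genes. No gene of either list was called in that step, and the contrast between the lists was not tested.

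**Figure D4:**
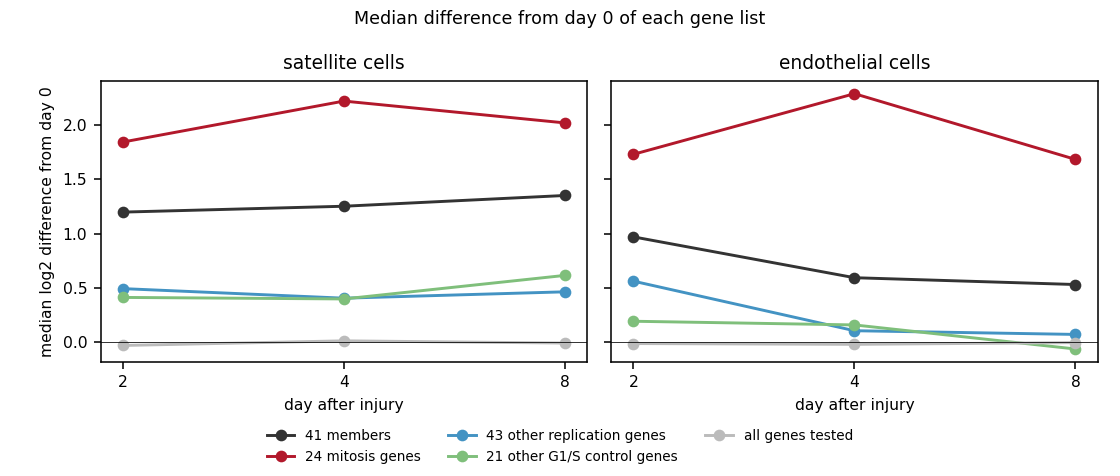
Median log2 difference from day 0 of each gene list on days 2, 4 and 8, in satellite cells (left) and endothelial cells (right). The median of the 41 members goes 1.20, 1.25 and 1.35 in satellite cells and 0.97, 0.60 and 0.53 in endothelial cells, while the mitosis genes stay at 1.68 or more in both.

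The member means of single arrays were set beside the marker means. The mean over the 41 members was 5.77, 6.27 and 5.79 on the 3 satellite arrays of day 2, and replicate 2, the highest, had the lowest leukocyte mean and the highest endothelial mean of that group. On endothelial day 2 the member means were 5.81, 6.15 and 6.00, and the leukocyte means were 8.26, 5.80 and 6.85, so the array with the lowest leukocyte mean had the highest member mean. On endothelial day 4 the order was the reverse, with member means of 5.93, 5.56 and 5.40 beside leukocyte means of 7.97, 6.54 and 5.96. On satellite day 8 the member means were 6.33, 5.74 and 5.96, and the leukocyte means, 6.52, 5.22 and 6.37, ran in the same order. The myofibre means of these arrays were 7.98, 10.54 and 10.55, so the array highest in members was lowest in myofibre markers. On satellite day 4 replicate 3 had the highest member mean (6.11) and the lowest leukocyte mean (6.88). On endothelial day 8 replicate 3 had the lowest member mean (5.27) and the highest leukocyte mean (5.44). Over the satellite days the leukocyte markers called higher than day 0 numbered 18, 15 and 8 of 18, beside 24, 23 and 24 members. The pericyte and smooth muscle markers called lower on these days numbered 9, 7 and 2 of 9, and the fibro-adipogenic markers called lower 4, 3 and 2 of 6, with 0, 2 and 2 called higher. In endothelial cells 11, 13 and 3 leukocyte markers were called higher and 4, 5 and 4 pericyte and smooth muscle markers lower, beside 16, 6 and 2 members. The part of these cells in the member values was not tested.

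**Figure D5:**
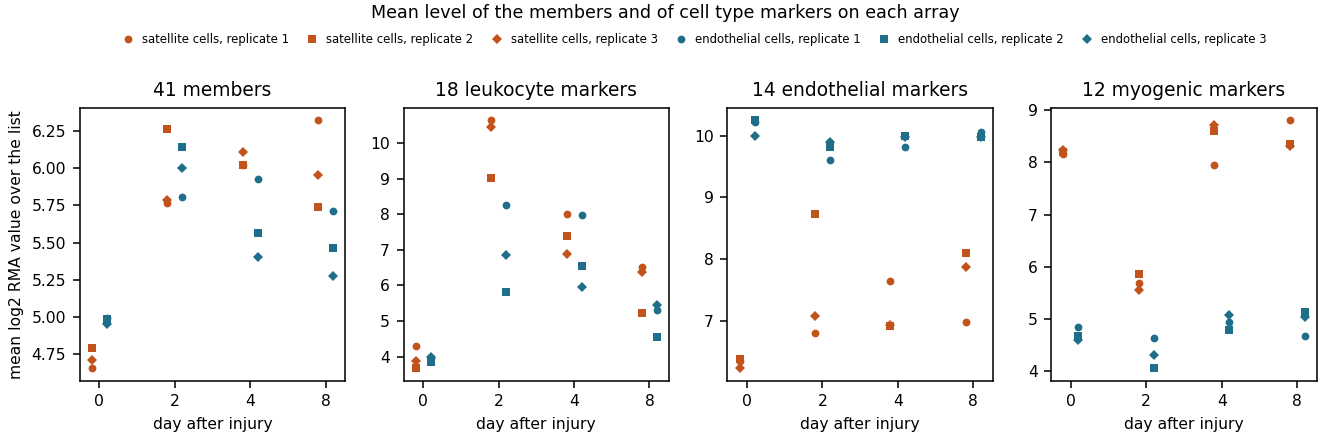
Mean log2 value per array over the 41 members and over the leukocyte, endothelial and myogenic markers, by day, with marker shapes for replicates 1, 2 and 3. The leukocyte mean of satellite cells is highest on day 2 and lower on each later day, while the member mean of satellite cells stays between 5.74 and 6.33 after injury.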

How the data were processed

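RNA from sorted satellite and endothelial cells was amplified, labelled and hybridised to MoGene 2.0 ST arrays, per the labels' protocols. The values are log2 intensities, 1 per probe set, which the authors normalized across arrays with RMA, per the submitters' processing notes; its version and the genome build are not given in the sources used here. RMA places arrays on 1 distribution, which hides a shift of all genes. Array medians lay between 4.11 and 4.40, and values of arrays of 1 group correlated at r between 0.863 and 0.957. Precision is limited by how many arrays there are.

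Groups were taken from the sample titles, which match the source names. In 12 samples the cell type field says otherwise, in 18 the time point field does, and only 2 samples have both fields right by the titles. Probe sets with 1 symbol (23281 of 24479) were used, the brightest per gene, and a gene was tested if its value exceeded the array median on at least 3 arrays. One limma 3.58.1 model in R 4.3.3 with 8 group means was fitted to all 24 arrays and 14064 genes (16 residual and 4.75 prior degrees of freedom), with eBayes and Benjamini-Hochberg adjustment per comparison over all genes tested. The procedure was tested on simulated data. A call needs an adjusted p under 0.05 and, in pairwise comparisons, an absolute log2 difference of at least 1. A dim group mean lies less than 1 above the array median.

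Members and lists were chosen with earlier results of these data known. Per-array values are given for the member of each role with the largest called difference in each cell type, for members called in a difference of responses, and for members never called; Pcna, Ccne1 and the endothelial values of E2f1 were added after their values were seen, and other members are given by their differences. From the other lists, genes come from the up to 4 largest called differences of a comparison. The replicate numbers of the titles were not taken as pairs: 4 of 12 same-numbered pairs of arrays had deviations that correlated above 0.1. However, 13 of 24 arrays correlated best with an array of their own number. The main tests treat the arrays as independent, and runs with a replicate block are given below. Promoter windows are from RefSeq. The alternatives were other filters, thresholds, scalings, weights and variance models, a replicate block, each cell type alone, and leaving out each array; leaving out the 3 satellite arrays of day 2 was chosen after seeing the data.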

Additional observations from a re-analysis of the deposited data

Results flagged for a closer look

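The differences in response between the cell types that passed the test drew attention because the same contrast with day 0 gave unlike values in satellite and endothelial cells. Rrm2, the small subunit of ribonucleotide reductase, responded more in satellite cells by 1.803 on day 2, 1.499 on day 4 and 1.624 on day 8 (log2, adjusted p = 0.00547, 0.0366 and 0.0355 in limma). On each of these days all 3 satellite arrays lay above all 3 endothelial arrays, and on day 0 the groups overlapped. E2f2 responded more in satellite cells by 1.529 on day 4 (adjusted p = 0.0198), with all 3 satellite arrays above all 3 endothelial arrays on days 2, 4 and 8. Every endothelial value of E2f2 lay under the lowest array median, so the size of its endothelial response is not known. E2f8 responded more in satellite cells by 1.655 on day 4 (adjusted p = 0.0389). Mcm6 responded more in satellite cells by 1.73 on day 8 (adjusted p = 0.0293), a gene that was lower in satellite cells on day 0. Of the other listed genes, Nasp responded more in satellite cells by 1.254, 1.588 and 1.603 on days 2, 4 and 8 (adjusted p = 0.0294, 0.0136 and 0.0213), and Rb1, the retinoblastoma gene, by 1.556 on day 8 (adjusted p = 0.0177). The Rb1 call was lost without any of satellite day 8 replicate 3, endothelial day 0 replicate 1 and endothelial day 8 replicate 3 (adjusted p up to 0.0589). The response of Pold2 in satellite minus endothelial cells was -1.635 on day 2 (adjusted p = 0.0292), and its step of day 4 over day 2 differed by 1.864 (adjusted p = 0.0245). The difference in response of Myc was -4.122, -2.995 and -1.998 on days 2, 4 and 8 (adjusted p = 3.47e-06, 0.000239 and 0.0135). The part of other cells in these differences was not tested. Groups of 3 arrays were not tested for outlying samples.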

How the results depend on the processing

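Of 230 results for single genes, 142 kept their call or lack of one in every alternative run, 0 reversed, 81 lost a call and 7 gained one in at least 1 alternative. Counts of members called moved by over 1.5 times as follows. With a minimum difference of 1.5, the counts were 11, 14 and 15 in satellite cells on days 2, 4 and 8, 6 on endothelial day 2, 1 on endothelial day 8, and 0, 0, 2 and 0 between the cell types on days 0, 2, 4 and 8, since a larger difference was asked for. With no minimum difference, 4 members differed between the cell types on day 2. With array quality weights, the counts were 1 for the satellite step of day 4 over day 2, 3, 8 and 5 for the difference in response on days 2, 4 and 8, 3 for the difference in the step of day 4 over day 2, and 13 for any difference in response. With arrays quantile normalized again, they were 3 and 1 on endothelial days 4 and 8. The endothelial day 8 count was also 1 with no filter on dim probe sets, with arrays centred on their median, and with trend and robust eBayes. With the filter at the 75th percentile, they were 1, 1 and 3 between the cell types on days 0, 2 and 4, and 2 for any difference in response, over the 24 of 41 members that passed this filter. With centred arrays, they were 3 between the cell types on day 4, 5 for the response on day 8 and 9 for any difference in response. Trend and robust eBayes gave 1 for the difference in the step of day 4 over day 2. The cause of these changes was not tested where none is named.

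With the replicate number as a replicate block, the endothelial day 8 count was 1, and with replicate and day as a random replicate block the difference in the step of day 4 over day 2 had 1; no other count of members moved by over 1.5 times. Of the 230 results for single genes, 5 lost their call with the replicate block and none did with the random one: Prim1 on satellite day 2 (adjusted p = 0.0511), Ccne1 between the cell types on day 4 (0.055), E2f8 and Rrm2b on endothelial day 8 (0.051 and 0.0565) and E2f7 on endothelial day 4 (0.0532). The same-numbered arrays correlated between -0.06 and 0.20, and 13 of 24 arrays correlated best with their own number, a hint from the data and not the design.

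Leaving out 1 array at a time gave satellite counts of 20 to 26, 22 to 24 and 17 to 25 on days 2, 4 and 8, and 0 to 1 for each satellite step. Endothelial counts were 9 to 17, 2 to 7 and 1 to 3, with 0 for both steps. Between the cell types they were 1 to 3, 2 to 3, 4 to 6 and 2 to 9 on days 0, 2, 4 and 8, and for the difference in response 1 to 3, 0 to 6 and 0 to 3, with 0 to 1 for the step of day 4 over day 2. The F-tests gave 27 to 30 in satellite cells, 6 to 13 in endothelial cells and 2 to 10 for the difference. Without the 3 satellite arrays of day 2, an alternative chosen after seeing the data, no count that could be made moved by over 1.5 times. The dim day 0 levels limit the size of the differences, and 3 arrays a group limit what a difference in response can show.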
